A study of Mus musculus with 47 samples.

Results

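Crypts and villi of the small intestine were compared within Apc1638N/+ mice, which are heterozygous for a targeted, truncating allele of the tumour suppressor gene Apc. The comparison used every array titled with this genotype, 4 of crypts and 4 of villi, out of 47 arrays in 12 groups of the series. These C57BL/6 mice were 3 months old and had been fed Ain76A, a purified control diet. Wild-type and p21-/- mice (which lack the cell cycle inhibitor encoded by Cdkn1a) of the same strain, age and diet, and wild-type C57BL/6 mice with a labelled age of 1 year kept on Ain76A, gave the same pair of tissues with 4 arrays each and serve below for comparison. The mutant allele is carried in all cells of the mouse and not in the epithelium alone, so every crypt and villus array of this genotype has it. The labels do not give the way crypts and villi were separated, the part of the small intestine taken, or whether tumours were present, and they do not say that replicates came from separate animals. P-values below therefore measure a spread between samples, which may be technical. That spread was estimated over all 47 arrays in 12 groups, not from the arrays of this genotype alone.

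The epithelium of the small intestine is renewed along an axis. Stem cells at the crypt base divide under Wnt signals, their daughters multiply in the crypt, and the cells then leave the cycle and mature on the villus into absorptive enterocytes, mucus-secreting goblet cells and hormone-secreting enteroendocrine cells, while Paneth cells stay at the crypt base and secrete antimicrobial proteins. Apc is part of the complex that marks beta-catenin for destruction and so holds Wnt signalling down, and bone morphogenetic proteins oppose Wnt signals towards the villus. Lymphocytes reside between the epithelial cells, mostly in the villus.

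Each array gave 1 log2 value per probe set, and 1 probe set was used for each gene. Levels below are log2 values after normalization, given as means ± SD, folds are log2 differences of crypt minus villus ± SE, so that a positive fold is a higher level in crypts, and a gene was called when its adjusted p was under 0.05 over all genes tested. The 4 crypt arrays were uneven before any gene was compared. Crypt arrays 1 to 4 had 15802, 15418, 18748 and 21855 measured probe sets, and villus arrays 1 to 4 had 21115, 19322, 17749 and 19809. Control probe sets were not normalized, so the spike-in, actin and Gapdh values here are on the deposited scale. The mean level of 18 spike-in control probe sets was 14.93, 14.92, 14.18 and 13.07 in crypts and 13.61 to 14.43 in villi, highest where the fewest probe sets were measured. The difference between the 3′ and 5′ actin probe sets, which grows as RNA is degraded, was 2.98, 3.30, 1.31 and 2.45 in crypts and 1.45 to 1.99 in villi. For the Gapdh probe sets it was 0.05, 0.44, 0.25 and 0.81 in crypts and -0.25 to 0.31 in villi. The actin and Gapdh differences thus ranked the crypt arrays differently. A crypt-villus score, the mean of 183 crypt-higher genes minus the mean of 211 villus-higher genes chosen on the 1-year Ain76A arrays, was 1.77, 1.38, 1.31 and 0.58 in crypts and -1.96, -2.29, -1.72 and -2.49 in villi. Each array thus lay on the side of its label, with crypt array 4 nearest to the villi, and the score of wild-type crypts ranged from -0.02 to 2.11. Over 5964 genes measured on all 8 arrays, correlations were 0.836 to 0.916 between crypt arrays, 0.868 to 0.961 between villus arrays and 0.701 to 0.874 between the tissues. The part of these array differences in the results was not tested. Fewer cells of a type and less RNA per cell cannot be told apart in such bulk samples.

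Of 7404 genes measured on at least 3 arrays of each tissue, 3076 differed between crypts and villi of Apc1638N/+ mice (41.5%), 1561 higher in crypts (21.1%) and 1515 higher in villi (20.5%). The median fold over all genes tested was -0.00, and the median SD between arrays of 1 tissue was 0.44 in crypts and 0.39 in villi. Crypt and villus values did not overlap for 1980 genes (26.7%), 1874 of them called. Called folds reached 2 or more, at least 4-fold on the linear scale, for 123 genes higher in crypts and for 160 higher in villi. Without crypt arrays 1 and 2, which had the fewest probe sets measured, 1088 genes were called higher in crypts and 1152 in villi, and a fit on the 8 arrays alone called 812 and 745. The largest crypt-higher folds without overlap belonged to Ang4 (4.58 ± 0.53), the proto-oncogene Myb, Defa39, Itln1, Cdc20, Cks1b and the potassium channel gene Kcnn4. Stmn1, Mki67, Fgfbp1, Bex1, Nop56, Ccn1 (3.14 ± 0.40), Csrp2 and the unnamed transcript 9130208D14Rik completed the first 15. In villi the largest belonged to the tryptophan-degrading enzyme gene Ido1 (-5.53 ± 0.47), Enpp3, Ada, the channel regulator gene Clca4a (-4.88 ± 0.68), Gzmb and Sct. Pmp22 (-3.84 ± 0.74), Ccl5, Gzma, Tm4sf4 (-3.58 ± 0.52), Itgae, the nucleobase transporter gene Slc23a4 (-3.47 ± 0.45), Nts, Tph1 and Cd3g followed. Ido1 was blank on crypt array 1, read 8.04, 7.89 and 7.28 on the others and 12.91, 13.26, 13.69 and 13.21 in villi, so that the tissues stood more than 4 log2 units apart.

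**Figure D1:**
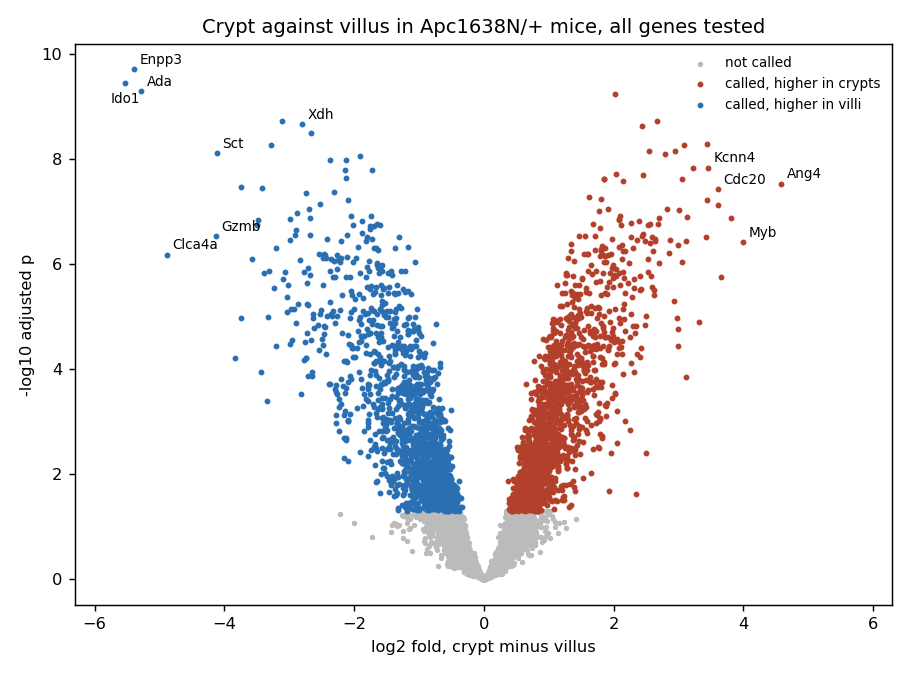
Fold and adjusted p of every gene tested. Each point is 1 of 7404 genes, with the log2 fold of crypt minus villus in Apc1638N/+ mice on the x axis and minus log10 of the adjusted p on the y axis. The 1561 genes called higher in crypts lie to the right and the 1515 called higher in villi to the left, and Ido1, Enpp3 and Ada are the farthest left.

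Genes of cell division were higher in crypts. All 19 mitosis genes tested, of 30 listed, were higher in crypts, with a median fold of 2.50, and the crypt and villus values of each of the 19 did not overlap. Cdc20, the activator of the anaphase-promoting complex, measured 12.91, 12.65, 12.47 and 11.68 in crypts and 9.65, 9.10, 7.61 and 8.92 in villi. The lowest crypt value was that of array 4, and it still lay above every villus value. Its fold was 3.61 ± 0.43 (adjusted p = 3.71e-08). Cks1b, a subunit that cyclin-dependent kinases need, measured 12.80, 12.68, 12.07 and 11.73 in crypts and 9.33, 8.85, 8.30 and 8.37 in villi, a fold of 3.61 ± 0.45. The proliferation marker Mki67 was higher by 3.44 ± 0.41 and the microtubule regulator gene Stmn1 by 3.45 ± 0.37. Ccna2 (3.06 ± 0.43) and Ccnb2 (2.06 ± 0.38) encode mitotic cyclins, Cdk1 (2.87 ± 0.37) their kinase, and Aurka (2.53 ± 0.37) and Bub1 (2.50 ± 0.40) kinases of the spindle and its checkpoint. The smallest mitotic fold, that of the spindle protein gene Nusap1, was 1.78 ± 0.39. A further 10 listed mitosis genes had a probe set but were measured on too few arrays of a tissue to be tested, 3 of them blank on all 4 villus arrays.

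Promoters of these genes carry elements known from cell cycle control. Those of Cdc20 (chr4:118437294-118437593, minus strand) and Cks1b (chr3:89418242-89418541, minus strand) are shown because both genes were among the 15 with the largest crypt-higher folds. That of Mcm6 (chr1:128359656-128359955, minus strand), a gene of the replication list, is shown for its pair of E2F motifs. The sequences run 5′ to 3′ on the strand of the gene, from 250 bases before to 50 after the start of RefSeq on build GRCm38.p6. Capitals mark the CHR (TTTGAA) and the CCAAT box (CCAAT) in the mitotic genes, and the E2F motif (TTTGGCGC) in Mcm6, each searched on both strands. CCAAT boxes on the other strand of Mcm6 are not marked.
Cdc20: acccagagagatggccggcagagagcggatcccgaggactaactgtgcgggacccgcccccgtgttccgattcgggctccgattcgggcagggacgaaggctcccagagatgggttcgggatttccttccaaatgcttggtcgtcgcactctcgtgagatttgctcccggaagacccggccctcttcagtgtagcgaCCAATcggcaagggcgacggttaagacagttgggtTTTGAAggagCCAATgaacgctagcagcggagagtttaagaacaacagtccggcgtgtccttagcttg
Cks1b: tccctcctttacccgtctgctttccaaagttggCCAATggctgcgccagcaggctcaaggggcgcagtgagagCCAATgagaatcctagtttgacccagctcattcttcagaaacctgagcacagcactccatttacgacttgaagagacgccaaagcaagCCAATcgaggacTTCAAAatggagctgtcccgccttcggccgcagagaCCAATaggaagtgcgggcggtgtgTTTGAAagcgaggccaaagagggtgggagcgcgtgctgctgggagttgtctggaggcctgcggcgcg
Mcm6: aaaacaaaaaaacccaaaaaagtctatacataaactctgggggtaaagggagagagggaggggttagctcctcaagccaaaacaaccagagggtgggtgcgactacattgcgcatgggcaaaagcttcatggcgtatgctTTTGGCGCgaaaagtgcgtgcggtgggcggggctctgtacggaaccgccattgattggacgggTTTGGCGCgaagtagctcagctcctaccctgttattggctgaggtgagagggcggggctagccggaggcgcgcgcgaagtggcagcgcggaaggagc

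Positions of the first base are counted from the start site, with no position 0. In Cdc20 the CHR lay at -18 and CCAAT boxes at -53 and -8. In Cks1b a CHR lay at -17 and another, on the other strand, at -77, with 4 CCAAT boxes. The E2F motifs of Mcm6 lay at -110 and -47. Of the 17 mitosis genes tested that had a promoter in the RefSeq table, 12 held the CHR (70.6%) and 14 the CCAAT box (82.4%). Over the 6114 tested genes with a promoter these shares were 11.6% and 38.5%, and over all 27025 RefSeq promoters they were 18.1% and 37.9%. For the 18 replication genes with a promoter, 5 held TTTGGCGC (27.8%, against 1.26% of tested genes) and 9 the related TTCCCGC (50%, against 8.42%), while 1 held the CHR (5.56%). The CCAAT box was held by 12 of these 18 (66.7%, against 38.5% of tested genes), so it was not particular to the mitosis genes. These are letter matches within a fixed window, and the lists were chosen by function and not by sequence.

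All 19 DNA replication genes tested, of 29 listed, were higher in crypts as well, with a median fold of 1.66, smaller than that of the mitosis list, and 16 of the 19 had no overlap. The primase subunit gene Prim1 had the largest fold of the list, 2.57 ± 0.35. Among the subunits of the replicative helicase, Mcm5 was higher by 2.08 ± 0.35, Mcm3 by 1.97 ± 0.41, Mcm7 by 1.84 ± 0.26, Mcm4 by 1.66 ± 0.41 and Mcm6 by 0.80 ± 0.27. Mcm6 overlapped between the tissues, since villus array 3, at 11.02, reached into the crypt values of 10.40 to 11.40. Pcna, the sliding clamp, measured 13.50, 12.84, 13.13 and 13.21 in crypts and 12.49, 12.17, 11.88 and 12.05 in villi, a fold of 1.02 ± 0.20 (adjusted p = 7.72e-05). Its 4 crypt values lay close together and above all villus values.

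Genes that govern entry into the cycle were divided. Of 13 G1 genes tested, of 18 listed, 6 were higher in crypts and 2 higher in villi, with a median of 0.18. The kinase genes Cdk6 (2.15 ± 0.30) and Cdk4 (1.70 ± 0.31), their partner Ccnd2 (1.22 ± 0.33) and the transcription factor gene Myc (1.13 ± 0.43, adjusted p = 0.0321) were higher in crypts. Cdkn1a, which encodes the inhibitor p21, measured 11.85, 11.52, 12.68 and 11.79 in crypts and 12.69, 12.85, 13.04 and 13.03 in villi. Its fold was -0.94 ± 0.25 (adjusted p = 0.00234), with crypt array 3 just below the lowest villus value, and its other probe set gave -1.09. In wild-type mice the fold of Cdkn1a was -0.27 ± 0.25, and the difference between the genotypes, -0.67 ± 0.35, was not called (adjusted p = 0.793). The inhibitor gene Cdkn2c lay the other way, with a fold of 1.38 ± 0.23. Of 7 p53 target genes tested, Cdkn1a, Mdm2 (-1.07 ± 0.36) and Trp53inp1 (-0.91 ± 0.34) were higher in villi, none was higher in crypts and 4 were not called. That share of calls is near the 41.5% of all genes, and the median was -0.26.

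**Figure D2:**
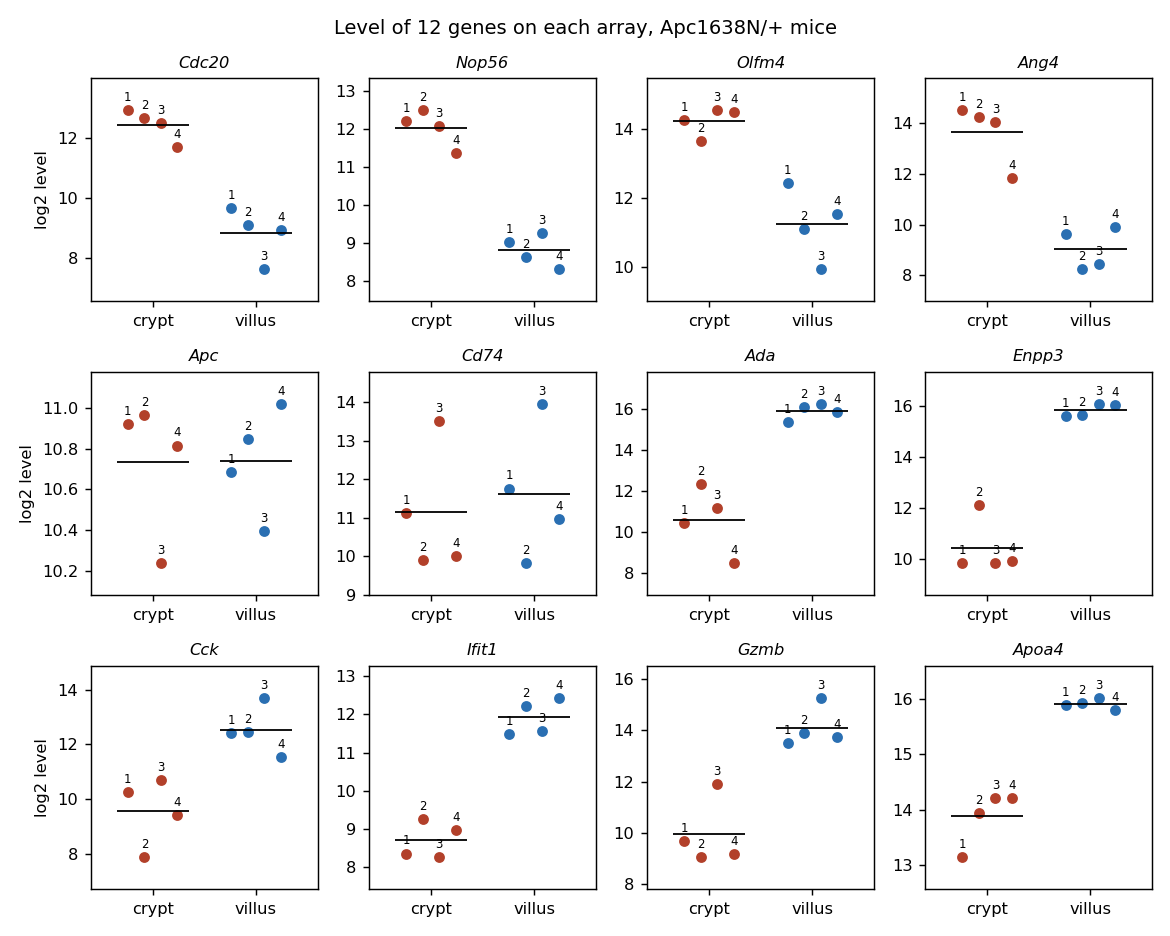
Level of 12 genes on each of the 8 arrays. Points are the normalized log2 values of the 4 crypt and 4 villus arrays of Apc1638N/+ mice, numbered by replicate, and bars are group means. The values of Cdc20, Ang4, Olfm4 and Nop56 lie higher in crypts without overlap, those of Apc and Cd74 overlap between the tissues, and those of the other 6 lie higher in villi without overlap.

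The machinery that makes ribosomes rose in crypts with the cell cycle genes. Of 16 genes of ribosome biogenesis tested, of 20 listed, 15 were higher in crypts and none in villi, with a median fold of 1.69. Nop56, a core protein of the particles that methylate ribosomal RNA, measured 12.19, 12.48, 12.08 and 11.37 in crypts and 9.03, 8.62, 9.27 and 8.30 in villi, a fold of 3.22 ± 0.36 (adjusted p = 1.44e-08). No crypt array came within 2 log2 units of a villus array. Gar1 (2.62 ± 0.40), Nhp2 (2.31 ± 0.35) and Dkc1 (2.27 ± 0.31), which modify ribosomal RNA, and the nucleolar genes Ncl (1.81 ± 0.29), Fbl (1.51 ± 0.33) and Npm1 (1.49 ± 0.27) followed. Bop1 was the member not called (0.57 ± 0.25, adjusted p = 0.0616). All 15 cytosolic ribosomal protein genes with a usable probe set, of 22 listed, were higher in crypts with smaller folds, from 0.54 ± 0.21 for Rpl19 to 1.97 ± 0.27 for Rps6, and a median of 1.06.

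The mitochondrial respiratory chain did not separate the tissues in this way. Of 23 genes of oxidative phosphorylation tested, of 24 listed, 2 were called higher in crypts (Ndufs3 by 0.75 ± 0.21 and Ndufb5 by 0.64 ± 0.25) and 1 higher in villi (Sdhb, -0.49 ± 0.18). The median fold was 0.02, and the other 20 genes, with folds between -0.41 and 0.36, were not called. In 13 fatty acid oxidation genes the median was -0.15, with Cpt1a (0.67 ± 0.25) and Pdk4 (1.40 ± 0.49) called higher in crypts and Ehhadh (-0.98 ± 0.31) higher in villi. These counts lie below the 41.5% of all genes, and a miss of the threshold does not show equal levels.

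Enzymes that feed nucleotide synthesis and methylation were mostly higher in crypts. In the folate and one-carbon list, 5 of 8 genes tested were higher in crypts, among them the serine hydroxymethyltransferase genes Shmt2 (1.99 ± 0.36) and Shmt1 (1.19 ± 0.40), Mthfd1 (1.79 ± 0.25) and Ahcy (1.91 ± 0.24), which removes the by-product of methylation. The intestinal folate carrier gene Slc46a1 was the 1 member higher in villi (-2.71 ± 0.55). Of 5 DNA and histone methylation genes tested, the maintenance methyltransferase gene Dnmt1 (1.93 ± 0.31), Hells (2.03 ± 0.33) and Ezh2 (1.28 ± 0.19) were higher in crypts and Tet2 (-0.72 ± 0.25) in villi. In cholesterol synthesis 6 of 13 genes tested were higher in crypts, with a median of 0.77, led by Idi1 (1.86 ± 0.33), Fdft1 (1.38 ± 0.36) and Hmgcs1 (1.07 ± 0.29). Sc5d (-0.68 ± 0.23) was higher in villi, and the other 6 were not called. Over all genes tested, 21.1% were higher in crypts and 41.5% were called in either direction.

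Of 4 stem cell genes tested, of 13 listed, 3 were higher in crypts. Olfm4, which marks crypt base columnar stem cells, measured 14.26, 13.65, 14.54 and 14.48 in crypts and 12.43, 11.09, 9.93 and 11.53 in villi, a fold of 2.99 ± 0.52 (adjusted p = 1.7e-05). The lowest villus value was that of array 3. The sodium-potassium-chloride cotransporter gene Slc12a2 (3.00 ± 0.41) and Prom1 (1.58 ± 0.33) were also higher in crypts without overlap, and Rnf43 was not called (-0.55 ± 0.35, adjusted p = 0.206). The other 9 listed could not be tested. Lgr5, a receptor that marks crypt base stem cells, was measured on 3 crypt arrays, at 9.09, 9.83 and 8.21, and on 1 villus array, at 7.26.

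Apc itself was not called different between the tissues. It measured 10.92, 10.96, 10.24 and 10.81 in crypts and 10.69, 10.85, 10.40 and 11.02 in villi, and the values were intermixed. The fold was -0.00 ± 0.20 (adjusted p = 0.989), and its other probe set gave -0.03. The probe sets are not said to lie in the part changed by the mutation, so the level of Apc checks no label here. Among 12 genes of the Wnt pathway tested, of 26 listed, the receptor gene Fzd5 was higher in crypts (1.52 ± 0.34), and Tcf7l2 (-1.13 ± 0.43, adjusted p = 0.0341), a transcription factor of the pathway, and Ctnnb1 (-0.54 ± 0.16), the gene of beta-catenin, were higher in villi. The other 9 were not called, a share of calls below the 41.5% of all genes, and the median of the 12 was -0.04. Of 4 Wnt target genes tested, of 18 listed, Myc alone was called, while Axin2 (0.81 ± 0.39, adjusted p = 0.0895) and Cd44 (0.38 ± 0.29, adjusted p = 0.3) were not. Axin2 measured 10.57, 8.88, 10.45 and 9.28 in crypts, so that crypt arrays 1 and 3 were high and 2 and 4 lay below the highest villus value of 9.36. Of 4 genes of Eph signalling, which sorts cells along the axis, Efnb2 was higher in crypts (0.65 ± 0.25) and Efna1 in villi (-0.94 ± 0.34).

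Of 11 genes of bone morphogenetic protein and hedgehog signalling tested, of 17 listed, 5 were higher in villi and 2 in crypts, with a median of -0.09. The targets of bone morphogenetic protein signalling Id1 (-1.37 ± 0.26), Id2 (-0.84 ± 0.26) and Id3 (-0.62 ± 0.19) and the feedback inhibitors Smad7 (-1.65 ± 0.27) and Smad6 (-1.23 ± 0.31) were all higher in villi. Id1 measured 11.53, 11.53, 11.97 and 11.90 in crypts and 12.55, 13.04, 13.50 and 13.33 in villi. Every villus value lay above every crypt value. The signal carrier gene Smad1 (0.93 ± 0.22) and the hedgehog receptor gene Ptch1 (0.97 ± 0.29) were higher in crypts, and the other 4 were not called. Among 15 intestinal transcription factor genes tested, Klf4 (-1.48 ± 0.30), a regulator of cell cycle exit and goblet cell maturation, and Gata6 (-1.15 ± 0.29) were higher in villi. Cdx1 (1.13 ± 0.32), Foxa2 (1.01 ± 0.33), Isx (0.97 ± 0.30) and Cdx2 (0.76 ± 0.27) were higher in crypts, and the remaining 9, among them Hnf4a (-0.19 ± 0.20), were not called, a share of calls near the 41.5% of all genes. Of 9 genes of Notch and secretory fate tested, Sox4 was higher in crypts (1.78 ± 0.29) and Atoh1 (-1.17 ± 0.27), the switch to secretory cells, and Klf4, also counted above, in villi. The other 6, among them Hes1 (0.63 ± 0.31, adjusted p = 0.102), were not called. This share of calls lay below the 41.5% of all genes, and the median was 0.42.

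The secretory lineages divided between the tissues. All 4 Paneth cell genes tested, of 19 listed, were higher in crypts without overlap, with a median fold of 3.73. Ang4, an antimicrobial ribonuclease, measured 14.48, 14.21, 14.03 and 11.83 in crypts and 9.63, 8.24, 8.45 and 9.91 in villi, and its fold was 4.58 ± 0.53 (adjusted p = 2.92e-08). Crypt array 4 was the lowest crypt array for each of the 4 genes. It read 14.73 against 16.11 or more for lysozyme, Lyz1 (2.85 ± 0.40), 13.81 against 15.45 or more for the defensin gene Defa39 (3.81 ± 0.49), and 11.75 against 13.76 or more for the lectin gene Itln1 (3.66 ± 0.55). Defensin genes form a family of near-identical copies, so Defa39 is uncertain as a single gene.

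Goblet cell genes did not move together. Of 9 tested, the mucin gene Muc2 (-1.90 ± 0.28), Fcgbp (-2.37 ± 0.27), the trefoil peptide gene Tff3 (-1.48 ± 0.23) and Clca1 (-2.48 ± 0.38) were higher in villi without overlap. Muc2 measured 14.57, 13.19, 14.14 and 13.23 in crypts and 15.47 to 15.97 in villi. Crypt arrays 2 and 4 were the lower pair for each of these 4 genes. Spink4 was higher in crypts (1.07 ± 0.38, adjusted p = 0.0219), and the other 4, among them Zg16 (-0.52 ± 0.24, adjusted p = 0.074), were not called.

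Of 16 enteroendocrine genes tested, of 26 listed, 14 were higher in villi, 2 higher in crypts and none was left uncalled, with a median fold of -1.76. The hormone genes of secretin, Sct (-4.12 ± 0.44), neurotensin, Nts (-3.44 ± 0.69), ghrelin, Ghrl (-3.23 ± 0.50), cholecystokinin, Cck (-2.96 ± 0.49), and somatostatin, Sst (-2.27 ± 0.49), were higher in villi without overlap, as was Tph1 (-3.42 ± 0.41), the enzyme of serotonin synthesis. Cck measured 10.24, 7.87, 10.68 and 9.41 in crypts and 12.40, 12.45, 13.70 and 11.52 in villi, so that villus array 3 was the highest. That array held the highest villus value for 13 of the 16 members, and the median level of the list was 12.52 there against 10.60 to 11.27 on the other villus arrays. The exceptions were the glucagon gene Gcg, with values of 12.81, 10.51, 11.84 and 11.22 in crypts and 10.25, 9.55, 8.93 and 8.35 in villi, and the tachykinin gene Tac1. Both were higher in crypts without overlap, Gcg by 2.32 ± 0.41 (adjusted p = 2.05e-05) and Tac1 by 1.17 ± 0.29. Of 10 tuft cell genes with a probe set, 6 were blank on all 4 crypt arrays, 1 of them on all 4 villus arrays too. The 1 that could be tested, Alox5ap, was higher in villi (-1.56 ± 0.39).

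Most genes of lipid absorption and of the brush border skeleton, which mature enterocytes use, were higher in villi. Of 17 lipid absorption genes tested, 12 were higher in villi, all 12 without overlap, and 1 was higher in crypts, with a median fold of -1.45. The lipoprotein genes Apoc2 (-2.71 ± 0.44), Apob (-2.12 ± 0.45), Apoa4 (-2.03 ± 0.32) and Apoc3 (-2.02 ± 0.38) and their regulator Creb3l3 (-2.70 ± 0.34) had the largest folds. The sterol transporter genes Abcg5 (-1.94 ± 0.27) and Npc1l1 (-1.66 ± 0.30) followed. Apoa4 measured 13.15, 13.95, 14.20 and 14.22 in crypts and 15.80 to 16.02 in villi. The lipid droplet gene Plin2 was higher in crypts (0.75 ± 0.22), and Fabp1 (-0.13 ± 0.18), Fabp2 (-0.29 ± 0.23), Mttp (-0.44 ± 0.29) and Mogat2 (-0.52 ± 0.30) were not called. Fabp1 read 16.13 to 16.53 in crypts and 16.11 to 16.53 in villi, near the top of the scale on all 8 arrays.

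All 12 microvillus genes tested, of 13 listed, were higher in villi, 10 of them without overlap, with a median fold of -1.25. The adhesion genes that link microvilli, Cdhr2 (-2.52 ± 0.31) and Cdhr5 (-1.99 ± 0.32), and their partner Myo7b (-2.05 ± 0.34) had the largest folds, and the actin bundler villin, Vil1, read 14.07 to 14.48 in crypts and 15.23 to 15.32 in villi (adjusted p = 4.39e-05). Fewer of the listed enzymes on the same membrane were called. Of 5 disaccharidase and phosphatase genes tested, lactase, Lct (-1.43 ± 0.43), trehalase, Treh (-2.17 ± 0.46), and Alpi (-1.86 ± 0.31) were higher in villi, and Mgam was not called (-0.25 ± 0.28). Of 7 brush border peptidase genes tested, Mep1b alone was called (-0.92 ± 0.27), and the median was -0.36. Anpep measured 11.17, 11.20, 14.52 and 12.22 in crypts and 12.10, 11.47, 13.10 and 11.29 in villi, highest on array 3 of both tissues, with a fold of 0.29 ± 0.73 (adjusted p = 0.777).

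Of 5 sugar transporter genes tested, the fructose carrier gene Slc2a5 (-2.16 ± 0.51), Slc2a2 (-1.04 ± 0.43) and the sodium-glucose cotransporter gene Slc5a1 (-0.71 ± 0.29, adjusted p = 0.0469) were higher in villi. Of 11 amino acid and peptide transporter genes, 5 were and 6 were not called, a share of calls near the 41.5% of all genes, among them Slc6a19 (-2.26 ± 0.49), Slc7a9 (-1.57 ± 0.23) and the peptide carrier gene Slc15a1 (-1.40 ± 0.46). Of 12 epithelial ion transport genes tested, of 14 listed, 5 were higher in crypts and 4 in villi, with a median of 0.30. Kcnn4 (3.46 ± 0.37), Kcne3 (2.97 ± 0.50), Slc12a2 and the chloride channel gene Cftr (2.11 ± 0.36), which serve chloride secretion, and Car4 (3.00 ± 0.54) were higher in crypts. The carbonic anhydrase gene Car2 (-2.99 ± 0.38), the anion exchanger gene Slc26a6 (-1.65 ± 0.29) and the sodium absorbers Slc9a2 (-1.41 ± 0.31) and Slc9a3 (-1.22 ± 0.38) were higher in villi. The anion exchanger gene Slc26a3 (0.87, adjusted p = 0.0741), Slc4a4 (-0.27) and Atp1b1 (-0.45) were not called. Cftr read 11.43 to 12.03 in crypts and 10.51, 9.40, 8.17 and 10.13 in villi, again lowest on villus array 3.

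Purine degradation held the largest single folds among the listed genes. Of 8 purine and nucleoside genes tested, 6 were higher in villi and none in crypts, and the median was -1.47. Adenosine deaminase, Ada, measured 10.41, 12.32, 11.15 and 8.47 in crypts and 15.34, 16.08, 16.22 and 15.81 in villi, a fold of -5.28 ± 0.50 (adjusted p = 4.95e-10). The ectoenzyme gene Enpp3 measured 9.85, 12.14, 9.85 and 9.92 in crypts and 15.59 to 16.06 in villi, a fold of -5.39 ± 0.48. Crypt array 2 was the highest crypt array for both, and Xdh (-2.80 ± 0.29), which makes uric acid, and Upp1 (-1.69 ± 0.32) also had no overlap. The ectonucleotidase gene Nt5e was blank on all 4 crypt arrays and read 9.57, 10.60, 13.65 and 11.86 in villi, so it has no fold. In xenobiotic metabolism 7 of 16 genes tested were higher in villi (20.5% of all genes were) and none in crypts, and the share called in either direction was near the 41.5% of all genes. The list was led by Cyp3a11 (-2.09 ± 0.50) and Cyp3a13 (-2.02 ± 0.29), and crypt array 4 was the highest crypt array for both. In retinoid metabolism, the carotenoid-cleaving enzyme gene Bco1 was the 1 of 7 genes tested that was higher in villi (-3.34 ± 0.75). The other 6 were not called, the median was -0.43, and the share of calls lay below the 41.5% of all genes.

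**Figure D3:**
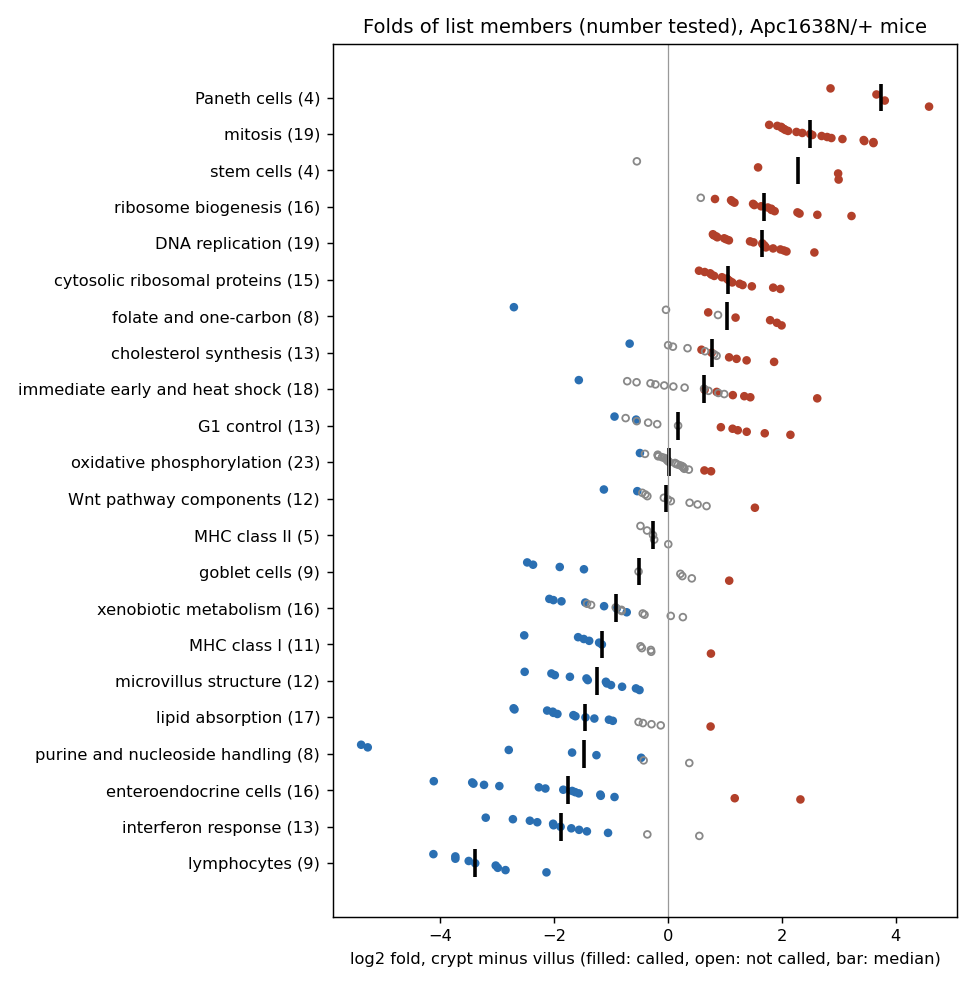
Folds by functional list. Each point is the log2 fold of crypt minus villus of 1 tested gene in Apc1638N/+ mice, filled where called, and the black bar is the median of the list. The medians run from 3.73 for Paneth cell genes and 2.50 for mitosis to -3.39 for lymphocyte genes, with oxidative phosphorylation at 0.02.

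Interferon response genes were higher in villi. Of 13 tested, of 27 listed, 11 were higher in villi without overlap and none higher in crypts, with a median fold of -1.89, and a further 4 were blank on all 4 crypt arrays. Ifit1, an inhibitor of viral RNA translation, measured 8.36, 9.27, 8.27 and 8.97 in crypts and 11.47, 12.22, 11.55 and 12.43 in villi. The groups lay more than 2 log2 units apart, and the fold was -3.20 ± 0.45 (adjusted p = 4.77e-07). Usp18 (-2.73 ± 0.48), the antiviral enzyme gene Rsad2 (-2.43 ± 0.46), Oasl2 (-2.30 ± 0.35), the RNA sensor gene Ifih1 (-2.01 ± 0.26) and the regulators Irf7 (-1.56 ± 0.35) and Irf9 (-1.06 ± 0.24) were higher too, and the other 2, Irgm1 (-0.37 ± 0.20) among them, were not called. The promoter of Ifit1 (chr19:34640639-34640938, plus strand, build GRCm38.p6, RefSeq) is shown for its interferon-stimulated response elements, searched on both strands as GAAA, any 2 bases and GAAA again, and marked in capitals.
Ifit1: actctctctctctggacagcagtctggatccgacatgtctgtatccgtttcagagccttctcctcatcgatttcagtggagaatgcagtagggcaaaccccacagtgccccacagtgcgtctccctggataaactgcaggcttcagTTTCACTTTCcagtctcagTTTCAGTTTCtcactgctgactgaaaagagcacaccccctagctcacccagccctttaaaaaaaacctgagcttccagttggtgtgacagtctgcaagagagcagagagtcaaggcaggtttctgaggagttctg
The elements lay at -104 and -85, both on the other strand. Of the 11 interferon genes tested with a promoter, 7 held the element (63.6%), against 3.14% of tested genes with a promoter and 3.49% of all promoters.

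Antigen presentation by MHC class I followed the same direction. Of 11 genes tested, 6 were higher in villi, among them the transactivator gene Nlrc5 (-2.53 ± 0.42), H2-D1 (-1.58 ± 0.25), H2-K1 (-1.39 ± 0.22) and B2m (-1.21 ± 0.19), and the peptide-trimming enzyme gene Erap1 was higher in crypts (0.75 ± 0.23). None of 5 MHC class II genes tested was called. Cd74 measured 11.11, 9.91, 13.51 and 10.01 in crypts and 11.76, 9.81, 13.96 and 10.96 in villi, a fold of -0.49 ± 0.69 (adjusted p = 0.595), and array 3 was the highest of each tissue.

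Lymphocyte markers moved with these genes. All 9 lymphocyte genes tested, of 18 listed and 17 with a probe set, were higher in villi without overlap, with a median fold of -3.39. The granzyme genes Gzmb (-4.12 ± 0.55) and Gzma (-3.74 ± 0.45), the chemokine gene Ccl5 (-3.74 ± 0.63) and the T cell receptor chain gene Cd3g (-3.39 ± 0.50) led, with Itgae (-3.50 ± 0.45), the integrin chain that binds lymphocytes to epithelium. Gzmb measured 9.70, 9.06, 11.92 and 9.18 in crypts and 13.50, 13.88, 15.26 and 13.72 in villi, so that array 3 was the highest of both tissues. Cd8a and Cd3e were each measured on 1 crypt array, array 3, and on all 4 villus arrays, and Cd8b1 was blank in all crypts. The log2 of the summed level of the list was 12.288 to 15.004 on crypt arrays and 16.381 to 17.954 on villus arrays. The part of these cells in the interferon and MHC folds was not tested. Among 6 myeloid genes tested, Fcer1g (-2.65 ± 0.54) and Itgax were higher in villi and Lyz2 was higher in crypts (2.13 ± 0.39), and it is a close sequence relative of Lyz1, so its fold is uncertain. Neither of 2 plasma cell genes tested was called.

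Markers of several other tissues were scarce. No gene of the fibroblast, endothelial, neuronal or red blood cell lists could be tested, and of 8 fibroblast genes with a probe set, 1 to 3 were measured per crypt array and 0 to 2 per villus array. Of 4 pancreatic genes with a probe set, 2 to 3 were measured per array, and neither of the 2 tested was called. The 1 smooth muscle gene tested read 11.59 to 11.93 in crypts and 10.82 to 12.37 in villi and was not called.

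Of 18 stress genes tested, which belong to the immediate early response or to heat shock, 6 were higher in crypts, 1 was higher in villi and 11 were not called, with a median of 0.64. The share called did not exceed the 41.5% of all genes. Hsph1 (2.62 ± 0.41), Hsp90aa1 (1.14 ± 0.25) and Hspa1a (1.34 ± 0.53, adjusted p = 0.0382) encode chaperones, and Egr1 (1.44 ± 0.32), Ier2 (0.85 ± 0.28) and Ier3 (0.64 ± 0.25) are induced within minutes of a stimulus. Fos (-0.55 ± 0.32) was not called, and Hspb1 was higher in villi (-1.57 ± 0.40). Hsph1 measured 13.18, 13.29, 12.15 and 12.10 in crypts and 11.01, 10.66, 8.81 and 9.76 in villi. The endoplasmic reticulum chaperones Hsp90b1 (1.55 ± 0.22) and Hspa5 (0.77 ± 0.27) and the amino acid stress factor gene Atf4 (1.07 ± 0.20) were also higher in crypts. In the list of unfolded protein and amino acid stress, 3 of 9 genes tested were higher in crypts and 6 were not called. Its median was 0.36, and its share of calls lay below the 41.5% of all genes.

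**Figure D4:**
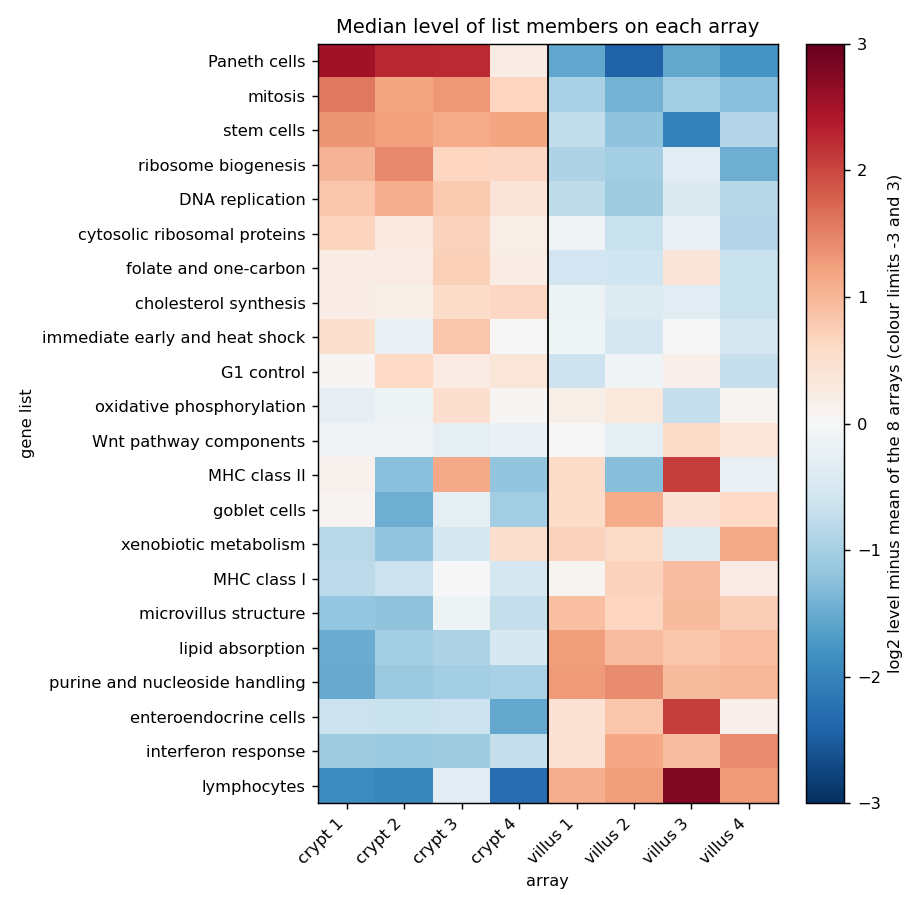
Level of functional lists on each array. Colour is the median log2 level of the tested members on an array minus the mean of that median over the 8 arrays, for the crypt and villus arrays 1 to 4 of Apc1638N/+ mice. Paneth cell genes read 12.82 on crypt array 4 against 14.81 to 15.09 on the others, and lymphocyte genes read highest on array 3 of each tissue, at 10.65 and 13.74.

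Without crypt arrays 1 and 2, the median fold was 2.36 for mitosis, 1.43 for DNA replication, 1.41 for ribosome biogenesis, 3.15 for Paneth cells, -1.36 for microvilli, -1.89 for interferon response, -1.88 for enteroendocrine cells and -3.05 for lymphocytes.

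Genes with no value in one tissue could not enter the fold test and are described by presence. In all, 98 genes were blank on all 4 crypt arrays and measured on all 4 villus arrays, and 49 the other way round. The highest levels of the first kind belonged to Nt5e, Ly6m, Bmp1, Tmem229b, Stk10, Gpx3, Gpr17 and the lymphocyte transcription factor gene Ikzf1, which read 9.82, 9.34, 11.22 and 9.48 in villi. Those of the second kind belonged to the retinol-binding protein gene Rbp7, at 11.49, 11.59, 11.52 and 10.57 in crypts, and to Twnk, Mettl1, Fads1, Nup85, Tcf19, Trim37 and the mitotic kinase gene Nek2. In wild-type mice 25 of the 98 and 24 of the 49 had the same pattern on all 8 arrays, and 3 of the 98 were measured on all 4 crypt arrays. Crypt arrays 1 and 2 of Apc1638N/+ mice had the fewest probe sets measured, 15802 and 15418. The part of this in the counts of 98 and 49 was not tested. Why values are blank is not stated, so a blank is not a level of 0.

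The axis of Apc1638N/+ mice was then set beside that of wild-type mice of the same age and diet, with which it shares no array. Over 6938 genes tested in both, the folds correlated across genes with r = 0.88, genes not being independent replicates. Of the calls, 2220 were shared in direction, 76.8% of the 2891 in Apc1638N/+ and 68.9% of the 3220 in wild type, and 6 genes were called in opposite directions. In wild type 3517 of 7589 genes were called (46.3%), 1546 in the direction of crypts (20.4%) and 1971 in that of villi (26.0%), with a median fold of -0.12. The difference of the folds, tested gene by gene, was called for 1 of 6938 genes (0.0144%), while 433 had an unadjusted p under 0.05.

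The gene was Bbx, an HMG box transcription factor gene on chromosome 16. It measured 8.62, 9.59 and 8.96 in crypts and 7.36, 7.49 and 8.42 in villi of Apc1638N/+ mice, and 7.74, 7.03, 7.72 and 8.42 in crypts and 8.02, 8.83 and 8.96 in villi of wild type, the other arrays being blank. The folds were 1.30 ± 0.29 and -0.88 ± 0.27, and their difference was 2.18 ± 0.40 (adjusted p = 0.0199). The call was not stable. It was lost without wild-type crypt array 2 (adjusted p = 0.0832), on the deposited scaling (adjusted p = 0.228), with array weights (adjusted p = 0.286), with the replicate block (adjusted p = 0.185), with blanks at the array minimum (adjusted p = 0.85) and in a fit of only the groups compared (adjusted p = 1). In the 3 groups in which Bbx had a value on 3 arrays it could not be tested without any of those arrays. Another probe set of Bbx gave a fold of 0.29 in Apc1638N/+ mice. Without crypt array 3 of Apc1638N/+ mice 18 genes were called, and the count was 0 to 4 without any other single array. It was 1 without wild-type crypt arrays 2 and 4, whose crypt-villus scores were -0.02 and 0.17. Among list members, Cdkn2c was 1.38 ± 0.23 in Apc1638N/+ and -0.04 in wild type, a difference that was not called (adjusted p = 0.0973), and Efnb2 was 0.65 ± 0.25 and -0.74 (adjusted p of the difference 0.228). Anpep, at 2.35 ± 0.73 in wild type, differed by -2.07 ± 1.03 (adjusted p = 0.792), which leaves a wide interval. The median folds of the lists, over the members tested in each genotype, were 2.50 in Apc1638N/+ and 3.03 in wild-type mice for mitosis (8 members tested there), -1.25 and -0.97 for microvilli, -1.89 and -2.26 for interferon response and -3.39 and -2.85 for lymphocytes. They lay farther apart for some other lists, among them stem cells (2.28 and 1.44), folate and one-carbon genes (1.03 and 0.30) and MHC class I (-1.16 and -0.42). The members tested numbered 4 and 3 for stem cells and 8 and 7 for folate and one-carbon genes, so these wild-type medians lack a member. The signs of the medians differed for brush border peptidases (-0.36 and 0.69), retinoid metabolism (-0.43 and 0.45) and myeloid cells (0.34 over 6 members and -1.11 over 4). They also differed for pancreatic acinar cells (0.43 and -0.51, 2 members) and for several lists nearer to 0. No list member was called for a difference between the genotypes. The smallest detectable difference was limited by its median SE of 0.36.

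**Figure D5:**
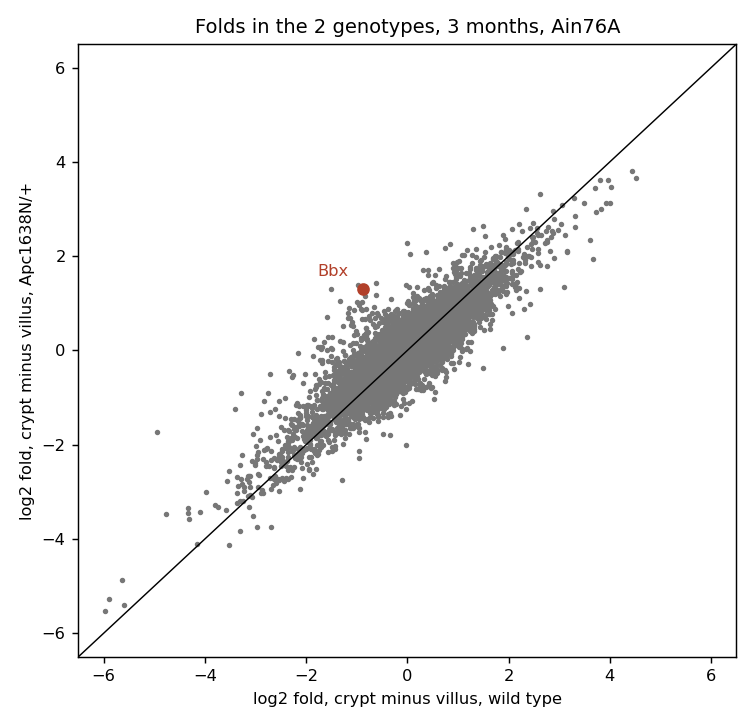
Folds of crypt minus villus in Apc1638N/+ against wild-type mice. Each point is 1 of 6938 genes tested in both genotypes, with the log2 fold in wild type on the x axis and in Apc1638N/+ on the y axis, and the line marks equal folds. The points follow the line (r = 0.88 across genes), and Bbx, the 1 gene with a called difference, lies at -0.88 and 1.30.

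Against p21-/- mice, also without shared arrays, limma called 0 of 6652 genes for a difference of the folds, with 317 at an unadjusted p under 0.05 and other settings calling up to 13. The 3 smallest p-values in each direction belonged to Tmem129 (1.75 ± 0.36, adjusted p = 0.106), Sun1 and Arel1, and to AI467606 (-1.85 ± 0.42), 4932431P20Rik and the Paneth cell gene Itln1 (-2.68 ± 0.77, adjusted p = 0.64). The folds correlated across 6652 genes with r = 0.906, and 2215 calls were shared in direction, 79.2% of those in Apc1638N/+ and 71.6% of those in p21-/-, where 46.1% of 6984 genes were called.

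Against wild-type mice of 1 year on Ain76A, a comparison added after the data were seen, 198 of 7213 genes differed in their fold (2.75%), 72 with a higher (0.998%) and 126 with a lower fold (1.75%) in Apc1638N/+ mice. Genotype, age and arm of the study all differ between these groups and cannot be told apart. The axis at 1 year had 4492 of 8537 genes called (52.6%). Enteroendocrine genes were among those that differed, with 6 of 15 called. Cck, at -2.96 in Apc1638N/+ mice, was -2.87 in wild type at 3 months and -0.05 at 1 year, where crypts read 11.25, 12.29, 11.40 and 10.70 and villi 10.86, 11.33, 11.85 and 11.80. The difference to 1 year was -2.91 ± 0.69 (adjusted p = 0.0209). Ghrl (-2.92 ± 0.68), Chgb (-2.32 ± 0.47), Chga, Tph1 and Sct were the others. Of 9 lymphocyte genes, Gzmb (-2.70 ± 0.78), Gzma (-2.52 ± 0.63), Cd3g and Itgae were called. The largest difference was that of Rgs1, a regulator of G protein signalling, with folds of -2.95 ± 0.53 and 1.17 ± 0.53 and a difference of -4.12 ± 0.76 (adjusted p = 0.00513). Differences the other way, with a deeper villus excess at 1 year, included Tmigd1 (2.79 ± 0.79), Ahnak (2.13 ± 0.44), Sulf2 (2.19 ± 0.48, but -0.02 with the probe set measured on most arrays) and Mgam (1.68 ± 0.39), whose fold was -1.93 at 1 year. The count rested on single arrays. It was 22 without villus array 3 of Apc1638N/+ mice, which read highest for the enteroendocrine and lymphocyte lists, and of the 10 enteroendocrine and lymphocyte calls Chgb alone then held. It was 395 without their crypt array 3, and 64 and 83 without their crypt arrays 4 and 2. It was 56, 77 and 98 without crypt arrays 1, 2 and 3 of the 1-year group and 103, 59 and 76 without its villus arrays 1, 2 and 4. For the genes named here that were tested in wild type at 3 months, the difference between Apc1638N/+ and that group was not called.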

How the data were processed

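The authors deposited log2 expression values, a single value for each of 45101 probe sets on each of 47 arrays, made with GCOS per the submitters' processing notes. No version, summary method or scaling is given in the sources used here. Of all values 55.2% were blank, for a reason not given, and blanks were not filled. Per the labels' protocols, RNA came from a Qiagen column kit and was hybridised as biotinylated cRNA.

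The trimmed means of the arrays differed by up to 1.46 times, so values were quantile normalized on the 8350 probe sets with a value on all arrays, with other values placed by monotone interpolation. Probe sets measured on at least 3 arrays were kept (30406). A single symbol was annotated to 34945 probe sets, several to 932 and none to 9160, apart from 64 controls. A gene was represented by its probe set of highest mean level. limma 3.58.1 in R 4.3.3 fitted 12 groups over all 47 arrays with a trend in the variance prior, and Benjamini-Hochberg adjustment ran over all genes tested in a comparison. A gene was tested when measured on at least 3 arrays of each group compared and called at an adjusted p under 0.05. On simulated data, 65% of 100 genes changed by 1 log2 unit and 94% of 100 changed by 2 were recovered among 7404 genes for the crypt-villus comparison. The other 7204 genes were left unchanged, and each gene had the same spread in every group. In the data 41.5% of genes were called and the spread differed between groups, so these rates do not give the recovery there. The number of arrays limits the precision.

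Named genes were the 15 largest called folds without overlap in each direction, members of the lists, for each difference between axes the 8 largest called or, with none called, the 3 smallest p-values in each direction, Apc and Cdkn1a, and the 8 highest among genes blank in one tissue. The members, the lists and this rule were chosen with earlier results of these data known. Crypt and villus arrays sharing a number had deviations that correlated with r of 0.0984, 0.0093, 0.337 and 0.552, and were not treated as pairs. Promoters came from RefSeq (GRCm38.p6), which held 6114 of the genes tested.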

Additional observations from a re-analysis of the deposited data

Results flagged for a closer look

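In 54 sets of 4 arrays whose values are printed, 3 held an array far from the other 3, and chance gives about 1 in 20. These were crypt array 4 for Ang4 (11.83) and for Rbp7 (10.57), both low, and crypt array 2 for Enpp3 (12.14), high. The fold of Bbx differed between Apc1638N/+ and wild-type mice by 2.18, a call that was lost on the deposited scaling, with array weights, with the replicate block, with blanks at the array minimum, with only the groups compared and without wild-type crypt array 2.

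Against wild-type mice of 1 year, in which genotype, age and arm cannot be told apart, the fold was lower in Apc1638N/+ mice for Cck (-2.91), Ghrl (-2.92), Chgb (-2.32), Chga (-2.35), Tph1 (-2.20) and Sct (-2.14). It was also lower for Gzmb (-2.70), Gzma (-2.52), Cd3g (-2.37), Itgae (-2.23) and Rgs1 (-4.12). It was higher for Tmigd1 (2.79), Ahnak (2.13), Sulf2 (2.19) and Mgam (1.68).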

How the results depend on the processing

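The crypt-villus comparison of 3076 genes gave 1557 when its 2 groups were fitted alone, and 2533 to 2892 without 1 array. The other settings stayed within 1.5 times of it, as did the 258 listed genes called (220 to 250 without 1 array). The replicate block called 3371 genes, on numbers that were not treated as pairs because 2 of the 4 same-numbered Apc1638N/+ correlations were under 0.1. Crypt arrays 1 and 2 correlated best with villus array 3, and crypt arrays 3 and 4 with their own numbers.

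The difference to wild type (1 gene) was 0 under the added above-median filter, array weights, blanks set to the array minimum, genes measured on every array, only the groups compared, the replicate block, the deposited scaling and without crypt arrays 1 and 2, and 0 to 18 without 1 array. The difference to p21-/- (0 genes) was 13 with blanks at the minimum and 3 without crypt arrays 1 and 2, and 0 to 2 without 1 array. The difference to 1 year (198 genes) was 570 under the replicate block, where the 4 same-numbered pairs of the 1-year group correlated by 0.170 to 0.252, 323 on the deposited scaling and 22 to 395 without 1 array. The score difference of 3.38 was 2.12 with genes chosen at a fold of 1, a choice that adds genes of smaller fold.

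Of 181 called genes named in the text, 35 lost the call with the 2 groups fitted alone and 30 without crypt arrays 1 and 2. With blanks at the minimum Cdx1 (-0.15), Ier3 (-0.56) and Tmem129 (-0.09) reversed. Without crypt arrays 1 and 2, uncalled folds reversed for 4932431P20Rik (-0.35), Atp1b1 (0.04), Cd74 (0.14), Mgam (0.04), Rnf43 (0.06) and Slc4a4 (0.23), and with array weights for Cd74 (0.03). Without 1 array, uncalled folds ranged across 0 for Apc (-0.12 to 0.16), Anpep (-0.46 to 0.66), Cd74 (-1.28 to 0.29) and Tmigd1 (-0.76 to 0.17). The difference of Sulf2 to 1 year was -0.02 with the probe set measured on most arrays. Where no construction shows it, the cause was not tested.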
